A study of Homo sapiens with 6 samples.

Results

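LSD1 and CoREST complex genes were followed by RNA sequencing after knockdown of the long non-coding RNA HOTAIR in libraries labelled HepG2, a human hepatocellular carcinoma cell line. The 10 genes were KDM1A, KDM1B, RCOR1, RCOR2, RCOR3, HDAC1, HDAC2, PHF21A, HMG20B and ZMYM2, found by NCBI gene ID among the 19589 features of the comparison that the submitters deposited. They were chosen by name, as the demethylase LSD1, its paralogue and their partners. No value served as a criterion, but earlier results of these data were known when the genes were chosen. The siHOTAIR group was transfected with siRNA against HOTAIR and the siNC group with the control that the labels call siNC. The labels give 3 libraries per group, no siRNA sequence, and nothing on whether the libraries of a group grew as separate cultures. The p-values below therefore cover only the spread between the libraries that entered the comparison.

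LSD1, encoded by KDM1A, removes methyl groups from lysine 4 of histone H3, a mark of active promoters and enhancers. It acts on nucleosomes when bound to a CoREST scaffold protein, which also holds the histone deacetylases HDAC1 and HDAC2, so that one complex takes off both methyl and acetyl groups. Transcription factors such as REST and SNAI1 bring the complex to DNA, and HOTAIR has been described as an RNA scaffold that binds both this complex and the Polycomb repressive complex PRC2. Only RNA was measured here, and in bulk samples fewer cells of a type and less RNA per cell cannot be told apart.

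The deposited means are sums over 5 libraries, which made it possible to work back to whole reads for 3 siHOTAIR and 2 siNC libraries. 1 library labelled siNC is not accounted for. The authors' deposited fold changes, standard errors and adjusted p-values below therefore appear to rest on 3 libraries against 2. A library was placed in its group by the sign that the authors' deposited table gives to features with a single read there, and its replicate number is unknown, so the libraries are called A, B and C. Each library held between 6050782 and 8027093 recovered reads. HOTAIR, the targeted RNA, had normalized counts of 62.4, 78.2 and 59.7 in the siHOTAIR libraries, against 202 and 150 in the siNC libraries, and its siHOTAIR mean was 37.9% of the siNC mean. Most measured hepatocyte markers were near 0: of the 7 used here from a list of 13, 5 had a mean under 1 (APOA1, APOA2, SERPINA1, FGB and TF), while KRT7, a keratin of ductal epithelium, had a mean of 11514. These levels go against the labelled cell line, so the values below are those of libraries labelled HepG2. KRT7 did not pass between the groups (log2 fold change -0.06, adjusted p = 0.615, authors' deposited table), and the other 3 measured markers of non-liver epithelium summed to 2238 to 2446 in siHOTAIR libraries, against 2713 to 3191 in siNC libraries, nearly all of it KRT17. The 4 measured fibroblast markers summed to 2124 to 2510 in siHOTAIR libraries, against 1230 to 1232 in siNC libraries, mostly from COL1A1 (mean 1591) and PDGFRB (mean 254), while COL3A1 did not pass (-0.07, adjusted p = 0.904, authors' deposited table). Marker sums also did not overlap for hepatocytes (7 of 13 markers, 28.6 to 37.2 in siHOTAIR, 19.1 to 20.9 in siNC), endothelium (3 of 3, 87.8 to 118 in siHOTAIR, 72.0 to 73.9 in siNC) and leukocytes (2 of 3, 122 to 148 in siHOTAIR, 183 to 201 in siNC), and those of neurons overlapped. The part of these markers in the results below was not tested.

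Of the 10 genes, 2 rose (HMG20B and RCOR2) and 3 fell (KDM1A, HDAC1 and ZMYM2) at an adjusted p under 0.05 in the authors' deposited table. Over all 14597 features with an adjusted p, 40.4% passed the same threshold, 20% rising and 20.4% falling and the share among the 10 genes, 50%, lies near that background. All 10 passed the filter on low values. limma-voom, a linear model of log counts fitted to the recovered reads, called the same 5 genes, against 47.1% of all features. The reads of the 10 genes were picked to return the authors' fold changes, so this match is no independent check. Scaled by library totals instead of size factors, limma-voom called 9, against 47.7%. With a minimum change of 2-fold KDM1A alone passed, against 6.25% of all tested features in either direction and 3.51% falling. That pass is narrow: the log2 fold change of KDM1A was -0.96 without the siNC library B and -0.99 without the siHOTAIR library C (limma-voom), both short of 2-fold. The change in KDM1A was of another size than the rest, 2.01-fold lower in the authors' deposited table, while the other 9 genes stayed between -0.32 and 0.54 on the log2 scale. The median log2 fold change of the 10 genes was -0.19 in the authors' deposited table, against 0.01 over all tested features.

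**Figure D1:**
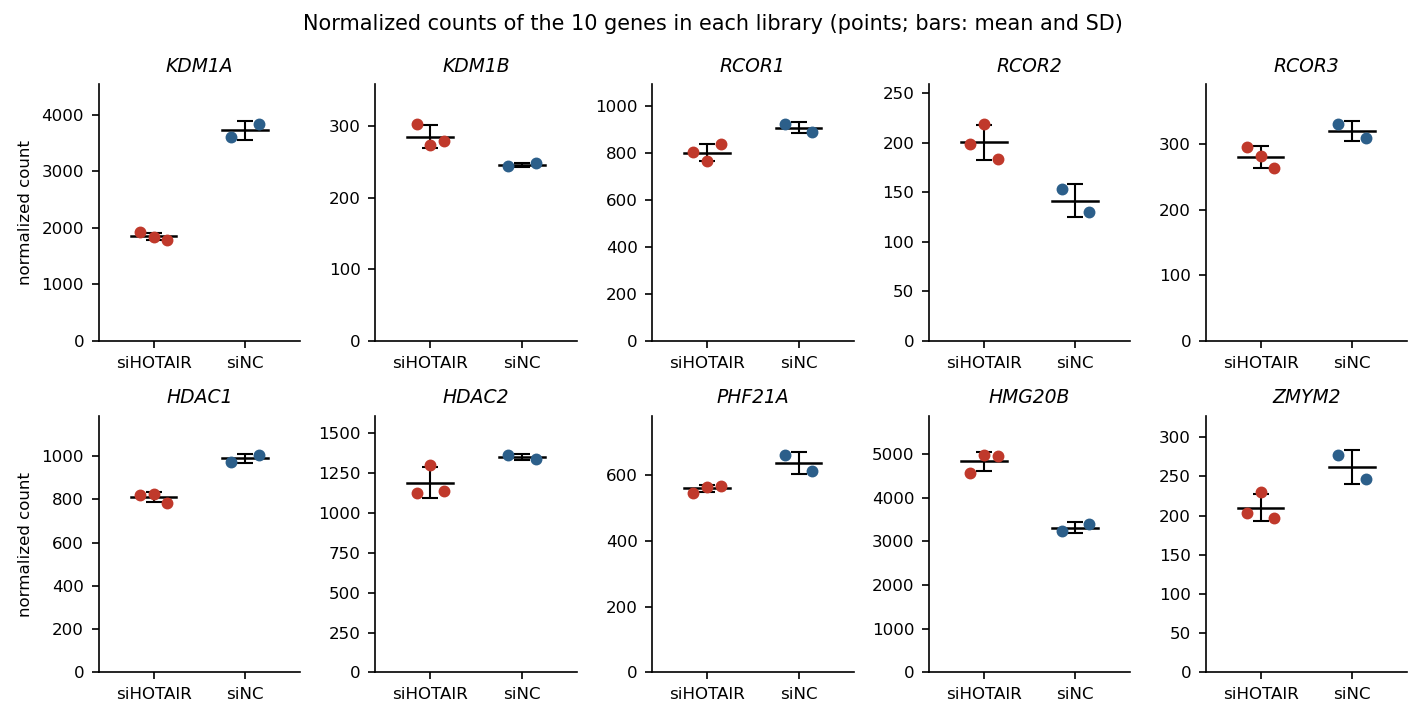
Normalized count of each of the 10 genes in the 3 siHOTAIR libraries (red, left) and the 2 siNC libraries (blue, right), with the y axis starting at 0. Horizontal bars are group means and error bars are SD. The siHOTAIR libraries of KDM1A lie between 1792 and 1922, below both siNC libraries, and in the other panels the distance between the groups is smaller relative to the level.

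Of the demethylase genes, KDM1A fell and KDM1B did not pass the test. KDM1A had normalized counts of 1922, 1838 and 1792 in the siHOTAIR libraries A, B and C, against 3609 and 3845 in the siNC libraries A and B. Each siHOTAIR library was well below each siNC library, and libraries of one group lay within 1.07-fold of each other. The means were 1851 ± 65.9 in siHOTAIR (SD, n = 3) and 3727 ± 167 in siNC (SD, n = 2), so siHOTAIR held 49.7% of the siNC level. The log2 fold change in the authors' deposited table was -1.005 (SE 0.0689, adjusted p = 8.57e-46). KDM1A ranked 62 by p among the 14597 tested features. Of the 1199 tested features whose mean was within 2-fold of that of KDM1A, 12 had a log2 fold change as low or lower, KDM1A itself included. Over all tested features, 6.97% had a change of at least this size in either direction. Deposited fold changes of features with few reads are drawn toward 0, which lowers that share by an amount that was not tested. It is the only one of the 10 genes that the authors' deposited table of calls lists as Down, and none of the 10 is listed there as Up.

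KDM1B encodes LSD2, the paralogue of LSD1, which demethylates the same residue mainly in gene bodies and is not part of the CoREST complex. Its normalized counts were 303, 273 and 278 in the siHOTAIR libraries, against 244 and 248 in the siNC libraries. Every siHOTAIR library was above every siNC library, but the log2 fold change of 0.21 (SE 0.126) did not pass (adjusted p = 0.170, authors' deposited table). Its 95% interval in that table was -0.03 to 0.46. Non-overlap was common in these data: siHOTAIR and siNC libraries did not overlap for 63% of the 14468 tested features with recovered reads, with siHOTAIR below siNC in 31.9% and above it in 31%. All 10 genes had groups that did not overlap, 7 with siHOTAIR below siNC and 3 with siHOTAIR above.

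Per length of exon, KDM1A made up 88.5%, 89.1% and 88.7% of the KDM1A and KDM1B level in the siHOTAIR libraries, against 94.75% and 94.98% in the siNC libraries. KDM1A was the more abundant of the pair in every library, and its share was lower in each siHOTAIR library than in each siNC library. The exact permutation test used here takes its two-sided p as 2 times the smaller one-sided p. Computed in that way, 3 libraries against 2 cannot give a p below 0.2, and 0.2 is what it gave here. This limit holds for all 10 shares and ratios computed per length.

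**Figure D2:**
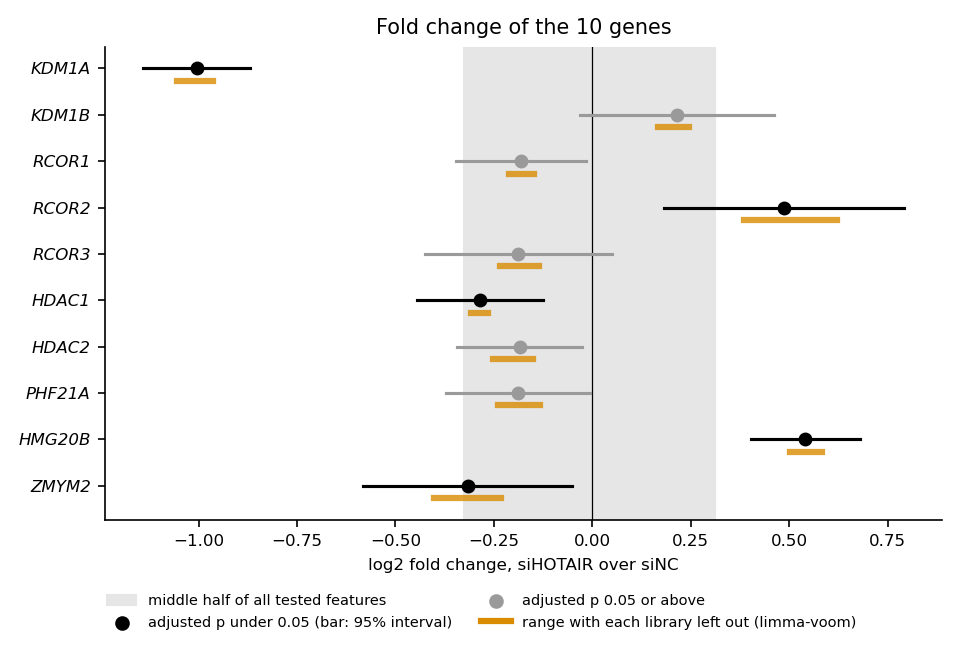
Log2 fold change of each gene, siHOTAIR over siNC, in the authors' deposited table, with its 95% interval; black marks an adjusted p under 0.05 and grey a higher one. Orange bars show the range when each library is left out in turn, and the shaded band runs from the lower to the upper quartile of all tested features (-0.33 to 0.31). KDM1A, HMG20B and RCOR2 lie outside the band, and KDM1A is the farthest from 0.

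The CoREST scaffold genes had smaller changes than KDM1A, 1 upward past the threshold and 2 that missed it. RCOR1 encodes CoREST1, the scaffold in which the complex was first described, with SANT domains that bridge LSD1 to the nucleosome. Its normalized counts were 802, 763 and 835 in the siHOTAIR libraries, against 923 and 890 in the siNC libraries. The siHOTAIR values were all lower, and siHOTAIR held 88.3% of the siNC mean, but the log2 fold change of -0.18 (SE 0.0840) did not pass (adjusted p = 0.0728, authors' deposited table). RCOR3, whose product has been described as a weaker partner that can compete with CoREST1, had 296, 283 and 264 in the siHOTAIR libraries, against 332 and 309 in the siNC libraries. Its log2 fold change of -0.19 (SE 0.121) did not pass (adjusted p = 0.216, authors' deposited table).

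RCOR2 was the scaffold gene that rose. RCOR2 encodes CoREST2, known in embryonic stem cells and neural progenitors of mice. Its normalized counts were 198, 219 and 184 in the siHOTAIR libraries, against 153 and 130 in the siNC libraries. The groups did not overlap, but libraries of one group differed from each other by up to 1.195-fold, more than for any other of the 10 genes. The log2 fold change was 0.49 (authors' deposited table, SE 0.156, adjusted p = 0.00619), on 116 to 229 reads per library.

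Per length of exon, RCOR2 made up 27.8%, 30.9% and 26.3% of the 3 scaffold transcripts in the siHOTAIR libraries, against 20.6% and 18.8% in the siNC libraries. RCOR1 was the largest share in every library, at 48.6% to 54.1% in siHOTAIR and 56.3% to 58.1% in siNC. The sum of the 3 scaffolds was 272 ± 3.42 normalized counts per kb in siHOTAIR (SD, n = 3) and 276 ± 13.6 in siNC (SD, n = 2), and the groups overlapped. Set against that sum, KDM1A stood at a ratio of 2.24, 2.15 and 2.14 in the siHOTAIR libraries and at 4.05 and 4.62 in the siNC libraries. The ratio of KDM1A to its scaffolds was thus lower in each siHOTAIR library than in each siNC library. Its exact permutation p was 0.2 (two-sided, 2 times the smaller one-sided p), the lowest that this form of the test can give here. These are ratios of RNA levels, and the amount of assembled complex was not measured.

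Of the deacetylase genes, HDAC1 fell and HDAC2 missed the threshold. HDAC1, a class I deacetylase shared by the CoREST, SIN3 and NuRD complexes, had normalized counts of 821, 826 and 785 in the siHOTAIR libraries, against 975 and 1005 in the siNC libraries. Every siHOTAIR library was below every siNC library, with a log2 change of -0.29 in the authors' deposited table (SE 0.0813, adjusted p = 0.00181). Its paralogue HDAC2 had 1127, 1301 and 1141 in the siHOTAIR libraries, against 1364 and 1340 in the siNC libraries. The siHOTAIR library B stood close to the siNC libraries, and the log2 fold change of -0.18 (SE 0.0810) missed the threshold (adjusted p = 0.0545, authors' deposited table). HDAC2 is called when the fold changes are centred on the median of all tested features (adjusted p = 0.0451). The 95% intervals of the 2 genes overlap, -0.44 to -0.13 for HDAC1 and -0.34 to -0.03 for HDAC2 in the authors' deposited table, and the difference between the genes was not tested. Per length, HDAC1 made up 75.2% to 77.7% of the pair in siHOTAIR libraries and 77.4% to 78.2% in siNC libraries, ranges that overlap.

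Among the accessory subunits, HMG20B rose. HMG20B encodes BRAF35, an HMG-box protein that binds DNA and was purified with the LSD1 complex. Its normalized counts were 4576, 4975 and 4944 in the siHOTAIR libraries, against 3229 and 3405 in the siNC libraries. All siHOTAIR libraries were above both siNC libraries, the means being 4832 ± 222 in siHOTAIR (SD, n = 3) and 3317 ± 124 in siNC (SD, n = 2). The log2 fold change was 0.54 (authors' deposited table, SE 0.0710, adjusted p = 5.97e-13). The GENCODE 29 exons of HMG20B share 369 bases with those of MFSD12, a lysosomal transporter gene on the opposite strand, whose mean of 18832 is larger and whose log2 fold change was 0.98 in the authors' deposited table. The library kit marks strand, but no source used here gives the setting with which reads were counted, and with transcripts paired with RefSeq entries alone the shared length is 0 bases. Whether reads from MFSD12 enter the HMG20B count was not tested.

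ZMYM2, a zinc finger protein that binds the complex and SUMO-modified partners, had normalized counts of 204, 230 and 197 in the siHOTAIR libraries, against 277 and 246 in the siNC libraries. It fell by the narrowest margin of the 5, with a log2 change of -0.32 in the authors' deposited table (SE 0.135, adjusted p = 0.0481). The call is lost without the siNC library A (limma-voom, log2 fold change -0.23, adjusted p = 0.225). PHF21A encodes BHC80, a PHD finger protein that reads histone H3 left unmethylated by LSD1. It had 546, 564 and 567 in the siHOTAIR libraries, against 660 and 613 in the siNC libraries, and its log2 fold change of -0.19 (SE 0.0932) did not pass (adjusted p = 0.0924, authors' deposited table).

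**Figure D3:**
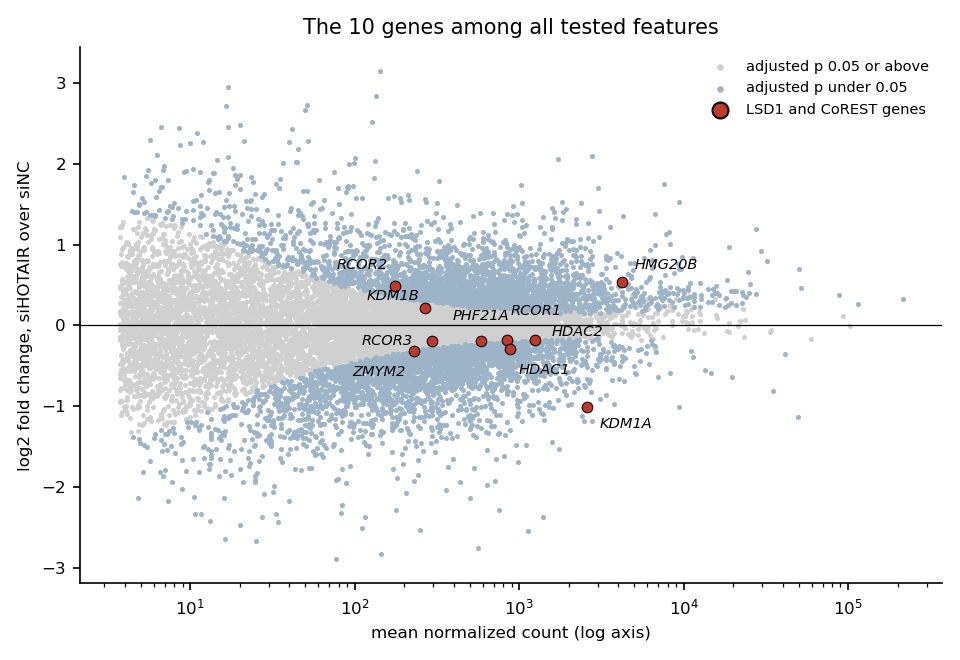
Mean normalized count (log axis) against the log2 fold change, siHOTAIR over siNC, of all 14597 tested features in the authors' deposited table; blue-grey points have an adjusted p under 0.05. The 10 genes are in red with a black edge. KDM1A lies at the lower margin of features of its level, and the 5 genes that missed the threshold lie inside or at the edge of the grey band.

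Ordered by level per length in siNC, the genes ran from ZMYM2, the lowest (20.5 normalized counts per kb in siHOTAIR, 25.5 in siNC), through RCOR2, RCOR3, KDM1B, HDAC2, RCOR1, PHF21A, HDAC1 and KDM1A to HMG20B (3027 per kb in siHOTAIR, 2078 in siNC). KDM1A was second, with 592 per kb in siHOTAIR and 1192 in siNC. The siNC libraries of RCOR3 and KDM1B overlapped, as did those of RCOR1 and PHF21A, so neither order is resolved. In siHOTAIR, KDM1A was still second, although HMG20B exceeded it by 4.67-fold, 5.30-fold and 5.41-fold in the 3 siHOTAIR libraries, against 1.75-fold and 1.74-fold in the siNC libraries. The middle of the order and the size of these ratios rest on exon lengths from GENCODE 29 transcripts paired with RefSeq entries. That choice was made after the values had been seen. With all GENCODE transcripts PHF21A lies below HDAC2 in siNC, and RCOR3 and KDM1B both lie below RCOR2.

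REST, ZNF217, SNAI2 and other proteins bring the complex to DNA or belong to its wider forms. Of 14 tested recruiters and further subunits, 3 rose and 2 fell in the authors' deposited table, a share of 35.7% against 40.4% of all tested features, and their median log2 fold change was -0.05. ZNF217, a zinc finger protein purified with CoREST and known as an oncogene of breast cancer, had 220, 237 and 210 normalized counts in siHOTAIR libraries, against 399 and 371 in siNC libraries, and its log2 fold change was -0.79 (adjusted p = 1.62e-09) in the authors' deposited table. SNAI2, a repressor of epithelial genes related to SNAI1, had 133, 119 and 113 in siHOTAIR libraries, against 56.9 and 48.2 in siNC libraries, and its log2 fold change was 1.16 (adjusted p = 3.61e-07) in the authors' deposited table. SNAI1, whose product binds LSD1 through its SNAG domain, had a log2 fold change of -0.27 and did not pass (adjusted p = 0.407 in the authors' deposited table). RREB1, a zinc finger factor linked to LSD1 and CtBP, fell (-0.27, adjusted p = 0.0228 in the authors' deposited table), a call lost without the siHOTAIR library A or the siNC library A (limma-voom, adjusted p = 0.0600 and 0.154).

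REST, the repressor of neuronal genes for which CoREST was named, had 437, 540 and 498 normalized counts in the siHOTAIR libraries, against 361 and 291 in the siNC libraries. It rose, with groups that did not overlap and a log2 change of 0.58 in the authors' deposited table (SE 0.121, adjusted p = 1.35e-05). REST binds a paired element called RE1, the described link from the complex to its neuronal targets, so the matches found at neuronal promoters are shown. The search asked for the words TTCAGCACC and GGACAG in this order on either strand, up to 12 bases apart, from 250 bases before to 50 bases after each start in the RefSeq promoter table of GRCh38.p14. Capitals mark the 2 words, and each sequence runs 5′ to 3′ on the strand given.
SCG3, chr15:51681508-51681536, plus strand: aacTTCAGCACCcacagggcGGACAGcgc
UNC13A, chr19:17688337-17688365, plus strand: tggTTCAGCACCgggggcgcGGACAGcgc
SYN1, chrX:47620071-47620093, minus strand: agcTTCAGCACCgcGGACAGtgc
These 3 genes act in secretory granules (SCG3) and at synaptic vesicles (UNC13A and SYN1). They were 3 of the 28 promoter windows of the neuronal list, and these 3 are among the 15 matches in all 35116 windows (0.0427%). The list was chosen as genes described as bound by REST, so its higher share was set by that choice and tests nothing. None of the 14 windows that matched 9 of the 10 complex genes held both words, and 14 windows are too few to show a difference from the share over all windows. A match is a description of these letters and not a binding site. The pattern was kept from several searched after the values had been seen.

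The neuronal genes described as bound and repressed by REST were mostly scarce. Of 30 measured genes, 11 had no adjusted p, and of the 19 tested 1 rose and 3 fell in the authors' deposited table, a share of 21.1% against 40.4% of all tested features, with a median log2 fold change of 0.04. GRIN1, a subunit of the NMDA receptor, had 59.8, 85.6 and 85.6 normalized counts in siHOTAIR libraries, against 192 and 166 in siNC libraries, and fell (-1.20, adjusted p = 2.66e-09 in the authors' deposited table). SNAP25, a SNARE protein of synaptic vesicle fusion, had 21.7, 30.0 and 21.4 in siHOTAIR libraries, against 67.8 and 58.3 in siNC libraries, and fell (-1.29, adjusted p = 5.66e-05 in the authors' deposited table). SCN3B, a sodium channel subunit, had 10.4, 11.8 and 21.4 in siHOTAIR libraries, against 38.5 and 21.3 in siNC libraries, and was called as falling (-0.95, adjusted p = 0.0423 in the authors' deposited table). Its groups overlap, and the call is lost without the siNC library A (limma-voom, -0.64, adjusted p = 0.279) or the siHOTAIR library A (-0.89, adjusted p = 0.0543). L1CAM, a cell adhesion molecule, rose (0.48, adjusted p = 1.22e-10 in the authors' deposited table) at a mean of 10674, too high for reads per library to be recovered. Of the genes shown with both words, UNC13A (0.18, adjusted p = 0.803) and SYN1 (0.21, adjusted p = 0.801) did not pass in the authors' deposited table, and SCG3 had a mean of 0.617 and no adjusted p.

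Several enzymes have been described to act on LSD1 protein itself. Of 8 tested modifiers and partners, 0 rose and 3 fell in the authors' deposited table, a share of 37.5% against 40.4% of all tested features, and the median log2 fold change was -0.23. USP22, a deubiquitinase described to stabilise LSD1, had 1137, 1090 and 1208 normalized counts in siHOTAIR libraries, against 1952 and 2015 in siNC libraries. Its log2 fold change was -0.79 (authors' deposited table, SE 0.0733, adjusted p = 2.78e-25), and every siHOTAIR library was below every siNC library. USP7, another deubiquitinase of LSD1, fell (-0.39, adjusted p = 5.62e-06), as did JADE2, a ubiquitin ligase that targets LSD1 for degradation (-0.24, adjusted p = 0.0253), both in the authors' deposited table. The call of JADE2 is lost without the siHOTAIR library A or the siNC library A (limma-voom, adjusted p = 0.108 and 0.1502). The 3 genes that fell include enzymes with opposite described effects on LSD1 protein, which was not measured. GLYR1, the nucleosome-binding partner of LSD2, had 0.06 (adjusted p = 0.597, authors' deposited table).

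Among other complexes built on class I deacetylases, 3 of 18 tested genes rose and 3 fell in the authors' deposited table, a share of 33.3% against 40.4% of all tested features, with a median log2 fold change of -0.03. HDAC3, a class I deacetylase of nuclear receptor corepressor complexes, had 324, 330 and 306 normalized counts in siHOTAIR libraries, against 460 and 500 in siNC libraries, and fell (-0.58, adjusted p = 1.06e-06 in the authors' deposited table). SIN3B, a scaffold for HDAC1 and HDAC2, rose (0.32, adjusted p = 0.000314 in the authors' deposited table). TRERF1, a zinc finger protein of the mitotic deacetylase complex, rose (0.45, adjusted p = 0.000182 in the authors' deposited table). Over all 59 tested partner genes 7 rose and 11 fell in the authors' deposited table, or 30.5% against 40.4% of all tested features. The share over all features varies with level, being 62.9% at a mean of at least 1000, and the lists were not matched for level.

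**Figure D4:**
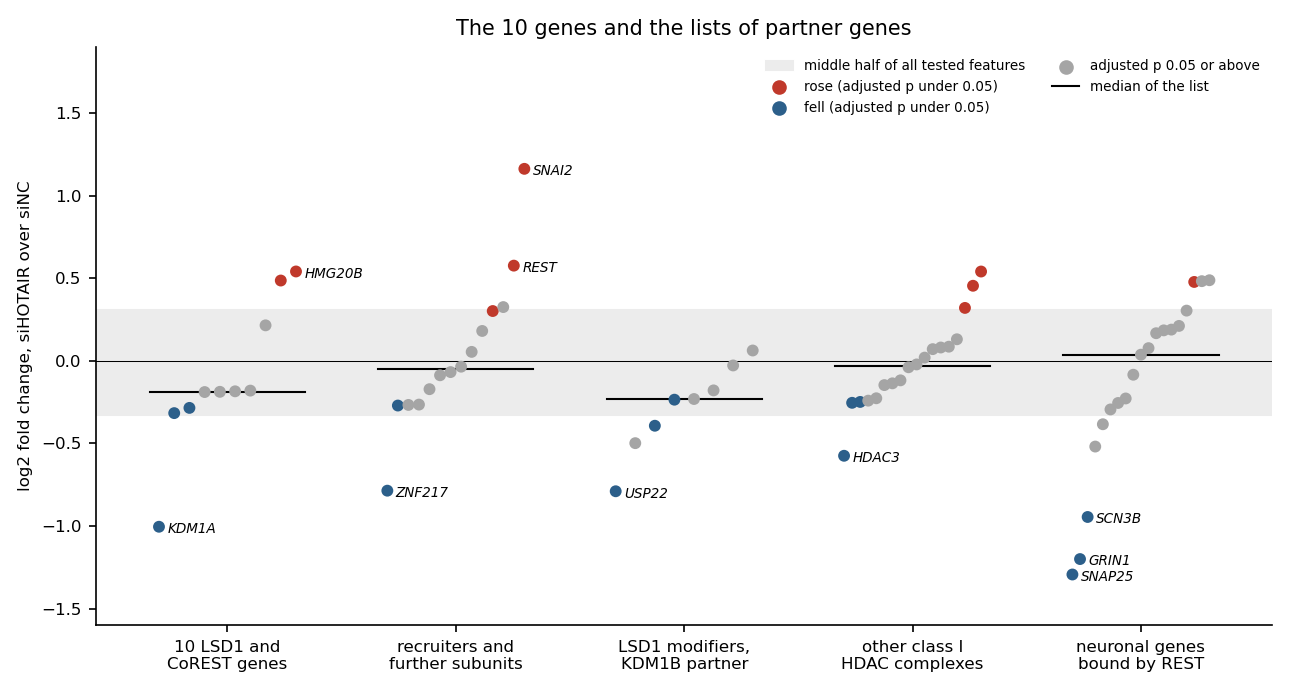
Log2 fold change, siHOTAIR over siNC, in the authors' deposited table for the 10 genes and for the tested genes of each partner list, sorted within each list; red points rose, blue points fell and grey points had an adjusted p of 0.05 or above. Black lines are medians, from -0.23 to 0.04, and the shaded band runs from the lower to the upper quartile of all tested features. Names are given for called genes described in the text with a change above 0.5 on the log2 scale.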

How the data were processed

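RNA sequencing libraries were made with a stranded total RNA kit, per the labels' protocols. Per the submitters' processing notes, HTSeq 0.6.1, DESeq and DESeq2 were used with genome build hg19; the sources used here do not give the aligner, annotation or strand setting. The deposited tables hold the authors' comparison and 0 columns of single libraries. The signal deposited by the authors is a mean of size-factor normalized counts. Log2 fold changes, standard errors, a score (fold change over standard error) and p-values, raw and adjusted, were used as the authors deposited them. The deposited fold changes are drawn toward 0, most for features with few reads, which lowers the shares of all features that pass a 2-fold minimum. A gene rose or fell at an adjusted p under 0.05 among 14597 features. Features matched RefSeq symbols (GRCh38.p14) for 19108 by gene ID and 386 by accession; 95 did not match.

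Reads per library were recovered from the deposited means, which are whole-number sums of what 1 read adds in each of 5 libraries. Up to a mean of 100 the mean alone fixed the reads. Up to 8000, candidates were kept only where they returned the authors' deposited fold change. The spread between libraries was solved from the deposited standard error, so that value was not a second check. Reads were recovered for 19330 of 19335 features tried, and size factors recomputed from them differed from those read off the means by at most 0.195%. The search was centred on values scaled by those size factors, so this match does not check single reads. Recovered features hold 72.6% of all normalized counts, so their totals are not library depth. The recovery was tested on simulated data. Normalized counts are recovered reads over size factors; those per kb use merged GENCODE 29 exons (GRCh38) of transcripts paired with RefSeq, which may differ from the authors' annotation.

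limma-voom (limma 3.58.1, R 4.3.3) on recovered reads was added after seeing the data, since the planned count models need deposited counts. Shares were compared by exact permutation. All 10 genes are named, and up to 4 called genes with the smallest p per partner list; 1 gene so selected is not reported here. SNAI1, GLYR1, MFSD12 and the genes with matched promoter words were chosen after their values were seen. Members and lists were chosen with earlier results of these data known.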

Additional observations from a re-analysis of the deposited data

How the results depend on the processing

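Of 110 alternative estimates for single genes of the complex, 0 changed sign, and 104 stayed on their side of the threshold or, where there was no test, moved by less than the standard error. The count of 5 called genes was 1 (KDM1A) with a minimum change of 2-fold, where 6.25% of tested features pass, and 1 by the authors' deposited calls, against 4.61% of tested features. It was 2 (KDM1A and HMG20B) with a Bonferroni adjustment, against 15.1%. The partner genes called numbered 3 with the 2-fold minimum, against 18. Scaling limma-voom by library totals instead of size factors shifted the median of all features by -0.05 and called 9 of the 10 genes, 2 rising and 7 falling, against 47.7% of all features; these totals leave out the most abundant features, and the cause was not tested. With size factors limma-voom called 5, the same genes as the authors' table, on reads that had been picked to return the authors' fold changes. Leaving out each library gave 4 to 5 called genes and 14 to 19 partner genes, against 35.6% to 45.1% of all features. RCOR1, RCOR3 and PHF21A passed the threshold with library totals alone among the settings tried, and HDAC2 also passed with centred fold changes and among features with a mean of at least 20, each of which called 6 genes, against 40.5% and 48.2% of all features.

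Using exons of all GENCODE transcripts, the ratio of KDM1A to the 3 scaffolds was 1.46 in siHOTAIR and 2.95 in siNC, and the scaffold sum was 233 per kb in siHOTAIR and 233 in siNC. HMG20B then exceeded KDM1A by a mean of 3.69-fold in siHOTAIR and 1.26-fold in siNC. KDM1A made up a mean of 87.0% of the KDM1A and KDM1B level in siHOTAIR and 94.0% in siNC. No paired analysis was possible because the recovered libraries carry no replicate number. The planned count models, with their scaling, filter and block alternatives, were not run. The lowest recovered counts among the 10 genes, 116 to 229 reads for RCOR2, limit that gene most. No result was tested for a sample far from the others, as no group has over 3 libraries.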
